A study of Mus musculus with 19 samples.

Results

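The hepatic uptake and efflux transporters are the carriers and pumps that move bile salts, organic anions and cations, phospholipids and drugs across the hepatocyte membrane. The group was a list of 31 gene symbols, chosen by what the proteins are known to do, with earlier results of these data known, and all 31 were found among the 55836 genes of the deposited liver RNA-seq counts. It held 15 uptake carriers and 16 efflux genes, called efflux pumps below. That label also covers members that are not ATP-driven export pumps, namely Slc47a1, the Slc51a-Slc51b pair and the phospholipid flippase Atp8b1. Bulk liver RNA of 19 male C57BL/6 wild-type mice was measured, 1 library per mouse, with mice 8 weeks old at the start of 8 weeks of diet and daily oral gavage. CD + Veh (n = 4) mice ate a low-fat control diet (CD) and received the Tween 20 vehicle, and CD + PE (n = 5) mice ate the same diet and received polyethylene (PE) microplastic at 2 mg per mouse and day in that vehicle. MD + Veh (n = 5) and MD + PE (n = 5) mice ate a diet high in fat, fructose and cholesterol (MD), used as a model of metabolic dysfunction-associated steatohepatitis, with vehicle or the same PE dose. The mice carried no transgene or deletion, and the vehicle was common to every group. The comparisons asked which transporters differed with PE on each diet, which differed with diet on each gavage, and whether the PE difference depended on diet.

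Bile salts and many drugs enter the hepatocyte from sinusoidal blood through solute carriers of the SLCO, SLC10 and SLC22 families. They leave either into bile, through ATP-driven pumps of the canalicular membrane, or back to blood, through basolateral pumps such as Abcc3 and Abcc4 and the Slc51a-Slc51b pair. Nuclear receptors, among them the bile acid sensor FXR and the drug sensors PXR and CAR, are known to regulate many of these genes, and in cholestatic liver the uptake carriers are known to be turned down while basolateral pumps are turned up.

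Slc10a1, Abcb4, Abcc3 and Abcg2 were the transporters called different between diets both with vehicle and with PE. For each, the 250 bases before the start of its canonical transcript are therefore shown. They were read from the GRCm39 genome at the canonical transcripts of the GENCODE annotation, and are printed 5′ to 3′ along the gene. The windows are chr12:81014854-81015103 on the − strand for Slc10a1, chr5:8943354-8943603 on the + strand for Abcb4, chr11:94283803-94284052 on the − strand for Abcc3 and chr6:58617251-58617500 on the + strand for Abcg2. The Slc10a1 and Abcg2 windows lie wholly, and the Abcc3 window partly, inside the annotated gene, which begins further upstream. Which start is used in these livers was not tested. Capitals mark AGGTCA, the half-site that many nuclear receptors bind.
Slc10a1: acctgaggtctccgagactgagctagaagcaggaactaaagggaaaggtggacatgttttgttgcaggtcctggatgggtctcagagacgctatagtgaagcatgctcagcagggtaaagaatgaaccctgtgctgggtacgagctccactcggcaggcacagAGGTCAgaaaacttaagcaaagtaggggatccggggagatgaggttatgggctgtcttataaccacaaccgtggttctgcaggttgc
Abcb4: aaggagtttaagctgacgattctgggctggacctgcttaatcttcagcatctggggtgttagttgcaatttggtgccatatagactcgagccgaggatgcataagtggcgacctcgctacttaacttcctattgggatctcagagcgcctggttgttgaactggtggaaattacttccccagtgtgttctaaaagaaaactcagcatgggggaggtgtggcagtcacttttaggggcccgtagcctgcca
Abcc3: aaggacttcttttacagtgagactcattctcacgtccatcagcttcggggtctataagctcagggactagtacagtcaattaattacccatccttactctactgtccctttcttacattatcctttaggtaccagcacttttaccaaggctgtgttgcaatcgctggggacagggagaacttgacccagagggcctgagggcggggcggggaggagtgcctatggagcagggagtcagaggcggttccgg
Abcg2: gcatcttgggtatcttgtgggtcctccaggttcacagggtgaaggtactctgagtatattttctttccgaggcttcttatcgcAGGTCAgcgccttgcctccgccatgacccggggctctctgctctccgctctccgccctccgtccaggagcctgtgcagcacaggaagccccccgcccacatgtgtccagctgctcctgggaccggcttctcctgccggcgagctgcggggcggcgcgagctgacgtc
AGGTCA on either strand was found once in the Slc10a1 window, 87 to 82 bases before the start, and once in the Abcg2 window, 167 to 162 bases before it, and it was not found in the Abcb4 and Abcc3 windows. Of 21770 windows of protein-coding genes of the same length, 13.1% held it, and 7 of the 31 transporters did. Paired half-sites were rarer. A direct repeat of the half-site with a single base between (the DR1 element) was in 0.0367% of windows and in 0 of the transporters, and the exact inverted repeat IR1 and direct repeat DR4 were in 0 of all windows. TGACNNNGC, the core of the antioxidant response element, was in 9.69% of windows and in 4 transporters. These counts describe letters in a window of 250 bases and say nothing of binding.

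Levels are given as counts scaled to library size (CPM) after trimmed-mean (TMM) normalization, and divided by the length of the canonical transcript in kilobases these values allow levels of different genes to be set side by side. On that per-length scale the highest transporter in CD + Veh liver was Slc10a1, the sodium-dependent bile salt carrier, at 406 ± 40.9 (SD, n = 4) CPM per kilobase. Slco1b2, an organic anion and bile salt carrier, followed at 181 ± 6.83, and Abcb11, the bile salt export pump, at 137 ± 24.1. Slco1a1, another organic anion carrier, stood at 112 ± 9.76 and Abcc2, the canalicular pump for conjugates, at 61.0 ± 2.04. These 5 genes held 73.1% of the summed level of the list. The ranges of Abcb11 and Slco1a1 overlapped, and so did those of 15 of the 30 neighbouring pairs in the order, so that the order in the lower part is not resolved. In CPM, 10 members were above 100 and 10 were below 10 in CD + Veh.

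**Figure D1:**
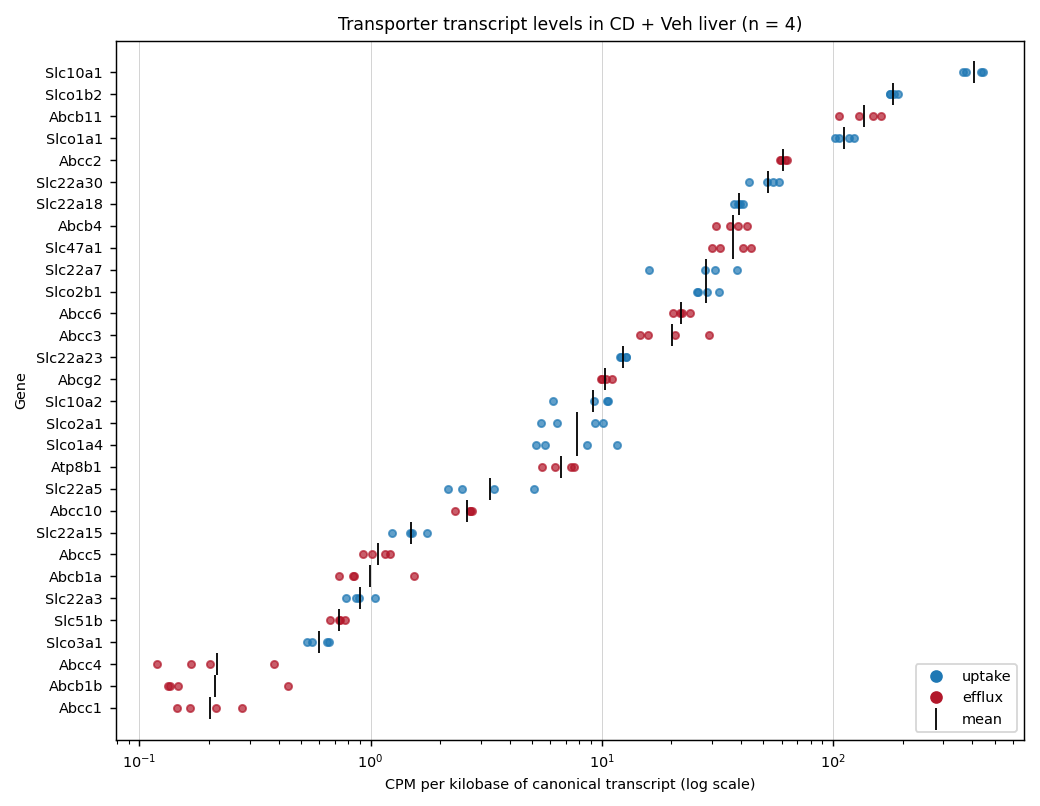
Transcript level of each transporter in the 4 CD + Veh libraries, in CPM per kilobase of canonical transcript on a log axis, with a point per library and a bar for the mean, and uptake carriers and efflux pumps in different colours. Slc10a1 lies highest at a mean of 406 and Abcc1 lowest at 0.201, and Slc51a, at 0 counts in these libraries, is not drawn.

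Of the 31 transporters, 30 passed the filter on low counts. Slc51a, the alpha subunit of the basolateral organic solute transporter, did not. It had 10 counts over all 19 libraries, in 4 of them, with 0 in every CD + Veh and MD + Veh library and 5 counts in MD + PE replicate 2. A limit of 3 counts per library corresponds to between 0.186 and 0.301 CPM. Its partner Slc51b had 0 to 27 counts per library, Abcb1b, a drug pump, 5 to 49, and both were measured with little precision.

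The libraries held between 10398820 and 15456729 counts. The PE libraries were shallower, at 10398820 to 12757617, than the vehicle libraries, at 13406037 to 15456729. The numbers in the column names were 39 to 47 for vehicle libraries and 48 to 57 for PE libraries, and the sources used here do not say what they stand for. The pseudogene Rps6-ps4 had 1088 to 1690 counts in the 7 libraries numbered 39 to 45 and 0 in the 12 numbered 46 to 57. This division splits replicates 1 to 3 of MD + Veh from replicates 4 and 5, holds the diet comparison under PE on 1 side, and cannot be told apart from PE on the control diet. A score of clock genes, the mean log2 CPM of Bmal1, Clock, Npas2 and Cry1 minus that of Dbp, Nr1d1, Nr1d2, Per3, Tef and Ciart, was −4.71 to −3.63 in CD + Veh, −3.24 to 0.483 in CD + PE, −2.57 to −0.261 in MD + Veh and −2.24 to −0.0388 in MD + PE, and CD + Veh did not overlap any other group. All 6 hepatocyte markers were detected in every library, and their summed level was 72046 to 89140 CPM in CD + Veh, 66832 to 93478 in CD + PE, 50375 to 64478 in MD + Veh and 49205 to 64709 in MD + PE. Of these 6, Alb, Apoa1 and Fgb were called lower in MD + Veh against CD + Veh. Ttr (log2 fold change −0.37, under the minimum fold) and Cps1 (−0.32) were lower and not called, and Apob was higher (0.17) and not called. Between diets under PE, Alb, Apoa1, Ttr and Fgb were called lower. Cps1 (−0.27) and Apob (0.17) were again not called. MD + Veh replicate 1 had a summed level of 6 skeletal muscle markers of 2720 CPM, MD + PE replicate 2 stood apart in intestinal markers, with Vil1 at 22.7 CPM, where no other library was above 0.645, Cdx2 at 2.02 CPM, where the others were at 0, and also in Krt19, at 58.7 CPM, and Epcam, at 29.2 CPM, which gut and bile duct epithelium share. Of the bile duct markers, Krt7 (13.1 CPM, no other library above 2.15) and Cftr (33.8 CPM, no other above 1.13) set that library apart too, and Sox9 and Spp1 did not. Of the other intestinal markers, Cdx1 and Guca2a were found in it alone, at 0.421 and 0.0842 CPM. Lct was at 0.674 CPM, with MD + Veh replicate 4 at 0.464. Fabp2 did not set it apart, at 118 CPM with MD + Veh replicate 3 at 121. Which epithelium this RNA came from was not tested. CD + PE replicate 2 had Kupffer cell markers at 614 CPM. In bulk liver, fewer hepatocytes and less RNA of a gene per hepatocyte cannot be told apart.

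None of the 4 carriers that stood next to Slc10a1 in level per length was called. Slco1b2 was at 866, 832, 799.7 and 802 CPM in CD + Veh, at 1039.9, 856, 1002, 912 and 880.2 in CD + PE, at 778, 857, 856, 1028 and 902 in MD + Veh and at 852, 1058, 1184, 971 and 1068 in MD + PE. Abcb11 was at 693, 797, 861 and 568 CPM in CD + Veh, at 671, 685, 671, 641 and 523 in CD + PE, at 706, 654, 679, 769.8 and 668 in MD + Veh and at 666, 542, 619, 539 and 549.5 in MD + PE. For both genes the groups overlapped in all 4 comparisons of 2 groups.

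Slco1a1 was at 467, 421, 487 and 404 CPM in CD + Veh, at 494, 436, 377, 498 and 449.5 in CD + PE, at 279, 220.1, 314, 399 and 419 in MD + Veh and at 395, 295, 499, 254 and 389.7 in MD + PE. Its spread was wider on MD, with the lowest libraries there. Abcc2 was at 508, 481, 472 and 498 CPM in CD + Veh, at 646, 513, 597, 585 and 574 in CD + PE, at 514, 629, 563, 681 and 491 in MD + Veh and at 634, 669, 691, 528 and 637 in MD + PE. All 5 CD + PE libraries of Abcc2 were above the 4 of CD + Veh.

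The other transporters that were called in no comparison spanned a wide range of levels. Group means of Slco2b1, a further organic anion carrier, lay between 115 and 146 CPM, and those of Slc22a7, an organic anion carrier, between 48.1 and 67.1. Slc22a5, the carnitine carrier, lay between 10.5 and 16.4 CPM and Slco3a1 between 3.11 and 4.64. Among the efflux genes, group means were 98.3 to 114 CPM for Slc47a1, 38.9 to 46 for Atp8b1, 143 to 163 for Abcc6, 10 to 12.7 for Abcc10, 6.32 to 8.21 for Abcc5 and 3.03 to 5.01 for Abcb1a.

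Between diets with vehicle, carriers of both directions differed. Slc10a1, the highest uptake carrier, was about 2-fold lower in MD + Veh, and the basolateral pump Abcc3, the phospholipid pump Abcb4 and the canalicular pump Abcg2 were higher, as were 3 carriers of the SLC22 family. A transporter is counted as called when the edgeR quasi-likelihood test gave a Benjamini-Hochberg adjusted p below 0.05 over the 13597 genes tested and the log2 fold change was 0.38 or more in either direction. Of the 30 transporters tested, 7 were called, which is 23.3%, against 10.4% of all genes. There were 6 higher, against a background of 4.74% of genes called higher, and 1 lower, against 5.63%. Among the uptake carriers 3 rose and 1 fell, and among the efflux pumps 3 rose and 0 fell. The median log2 fold change was 0.10 over the uptake carriers and 0.36 over the efflux pumps tested, beside −0.00 over all genes. At an unadjusted p below 0.05 stood 16 of the 30. Counts at an unadjusted p, here and below, have no share of all genes beside them, since the shares of all genes given are for calls. DESeq2 called 8, adding Abcc1, against 10.7% of its genes.

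Slc10a1 lies on chromosome 12 from 80996372 to 81015479 on the − strand, in 4 exons. Its normalized level was 656, 567, 549.6 and 672 CPM in the CD + Veh libraries and 231, 271, 284, 362 and 337 CPM in the MD + Veh libraries. Every MD + Veh library was below every CD + Veh library. The log2 fold change was −1.04 (SE 0.155, edgeR adjusted p = 0.000167), a level 2.06-fold lower. Exons of Srsf5 on the opposite strand overlap annotated exons of Slc10a1 but cover 0 bases of its canonical transcript. Srsf5 had a log2 fold change of −0.55 in this comparison (edgeR adjusted p = 0.000493) and of −0.27 between diets under PE (edgeR adjusted p = 0.0683). The share of Slc10a1 counts that could stem from Srsf5 was not tested. Slc10a2, the other sodium-dependent bile salt carrier, which in liver is known from cholangiocytes, was at 37.9 ± 8.68 (SD, n = 4) and 35.9 ± 4.66 (SD, n = 5) CPM, and was not called.

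None of the 6 organic anion carriers of the SLCO family was called by edgeR or by DESeq2, with 3 of 6 at an unadjusted p below 0.05 in each. Slco1b2 had a log2 fold change of 0.10 (95% interval −0.10 to 0.30). Slco1a1 had one of −0.45 (SE 0.180, edgeR adjusted p = 0.106), and its libraries overlapped, with 404 to 487 CPM in CD + Veh and 220.1 to 419 CPM in MD + Veh. Slco1a4 had −1.03 (SE 0.392, edgeR adjusted p = 0.0847), with a spread from 20.6 to 46.1 CPM in CD + Veh and from 7.88 to 23.0 CPM in MD + Veh.

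Of the 7 SLC22 carriers, 3 rose with diet under vehicle. Slc22a3, a carrier of organic cations and monoamines on chromosome 17 from 12637847 to 12726614, was at 3.05, 3.15, 2.75 and 3.70 CPM in CD + Veh. In MD + Veh it was at 5.64, 4.58, 5.25, 5.80 and 7.80 CPM, all above CD + Veh. The log2 fold change was 0.87 (SE 0.195, edgeR adjusted p = 0.00509), or 1.83-fold. Exons of Plg and Gm65152 on the opposite strand cover 16.8% of its canonical transcript. Plg was at means of 2397 CPM in CD + Veh and 1967 CPM in MD + Veh (log2 fold change −0.28). The share of Slc22a3 counts that could stem from Plg was not tested.

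Slc22a18, an imprinted organic cation carrier-like gene on chromosome 7 from 143027466 to 143053072, was at 57.3, 60.7, 62.3 and 59.8 CPM in CD + Veh. It was at 84.1, 81.5, 89.7, 72.6 and 71.1 CPM in MD + Veh, again with no overlap. It rose 1.33-fold (log2 fold change 0.41, SE 0.0896, edgeR adjusted p = 0.00413), and without MD + Veh replicate 3 the log2 fold change was 0.37, under the minimum. Slc22a15, on chromosome 3 from 101763035 to 101831886, was at 9.89, 11.7, 8.25 and 10.1 CPM in CD + Veh and at 14.1, 19.9, 17.7, 14.2 and 11.3 CPM in MD + Veh. The groups overlapped, since the lowest MD + Veh library was below the highest CD + Veh library, and the log2 fold change was 0.63 (SE 0.204, edgeR adjusted p = 0.0452). This call was lost when any of 9 libraries was left out (replicates 1, 3 and 4 of CD + Veh, 2, 3 and 4 of MD + Veh, or 1, 3 and 5 of MD + PE), with an adjusted p of up to 0.127. Slc22a23 was 1.23-fold lower with no overlap of libraries (log2 fold change −0.29, edgeR adjusted p = 0.0372), which is under the minimum fold.

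Of the 8 canalicular genes, 2 were called. Abcb4 moves phosphatidylcholine into bile and lies on chromosome 5 from 8943604 to 9011999. It was at 164, 143, 194 and 179 CPM in CD + Veh and at 261, 307, 319, 317 and 258 CPM in MD + Veh. No library of MD + Veh reached down to CD + Veh, and the log2 fold change was 0.78 (SE 0.110, edgeR adjusted p = 0.000105), or 1.72-fold. Its neighbour Crot, a peroxisomal carnitine acyltransferase whose exons cover 2.29% of the canonical Abcb4 transcript on the opposite strand, rose by a log2 fold change of 0.99 (edgeR adjusted p = 0.000148). The libraries were stranded per the methods, and the share of Abcb4 counts that could stem from Crot was not tested.

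Abcg2, a pump for sulfated conjugates, urate and many drugs on chromosome 6 from 58561505 to 58672661, was at 56, 59.7, 53.3 and 54 CPM in CD + Veh. It was at 72.9, 83.9, 86.1, 89.0 and 95.7 CPM in MD + Veh, above every CD + Veh library, with a log2 fold change of 0.62 (SE 0.117, edgeR adjusted p = 0.00144), or 1.53-fold. Abcb11 differed little, at 729.6 ± 128 (SD, n = 4) CPM in CD + Veh and 695 ± 45.9 (SD, n = 5) CPM in MD + Veh, with a 95% interval of the log2 fold change from −0.30 to 0.16. Abcc2 was at 489.6 ± 16.3 and 576 ± 78.9 CPM in the same groups and was not called (edgeR adjusted p = 0.119). Slc47a1, which exports organic cations, and Atp8b1, a phospholipid flippase, were not called either.

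Of the 8 basolateral genes, 7 were tested and Abcc3 was called. Abcc3, which exports glucuronides and bile salts to blood, lies on chromosome 11 from 94233874 to 94283823. It was at 76.7, 109, 83.1 and 153 CPM in CD + Veh and at 226, 313, 262, 239.8 and 186 CPM in MD + Veh. CD + Veh replicate 4 was the highest of its group, and still below the lowest MD + Veh library. The log2 fold change was 1.22 (SE 0.196, edgeR adjusted p = 0.000374), or 2.33-fold. Exons of Gm51871 on the opposite strand cover 11.8% of its canonical transcript. Abcc1 rested on 1.39 ± 0.410 (SD, n = 4) and 2.92 ± 1.34 (SD, n = 5) CPM with overlapping libraries, and was called by DESeq2 (adjusted p = 0.0370) and not by edgeR (adjusted p = 0.0589). Abcc4, another bile salt exporter, was at 1.31 ± 0.692 and 1.82 ± 0.876 CPM and was not called.

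Within the libraries numbered below 46, which leaves replicates 1 to 3 of MD + Veh against CD + Veh, all 7 were called, with log2 fold changes of −1.21 for Slc10a1, 0.51 for Slc22a18 and 1.35 for Abcc3, and Abcc1 and Slco1a1 were called too. The MD + Veh libraries on the other side of the division were higher in Slc10a1 (362 and 337 CPM) and lower in Slc22a18 (72.6 and 71.1 CPM) than replicates 1 to 3. The clock score separated the vehicle groups completely. With that score in the model, 2 of the 7 transporters, Abcb4 and Abcc3, were still called, and Slc10a1 had a log2 fold change of −0.74 (edgeR adjusted p = 0.0603). With the same score in the model, the diet comparison under PE, where the score ranges overlapped, still called all 5 of its transporters.

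**Figure D2:**
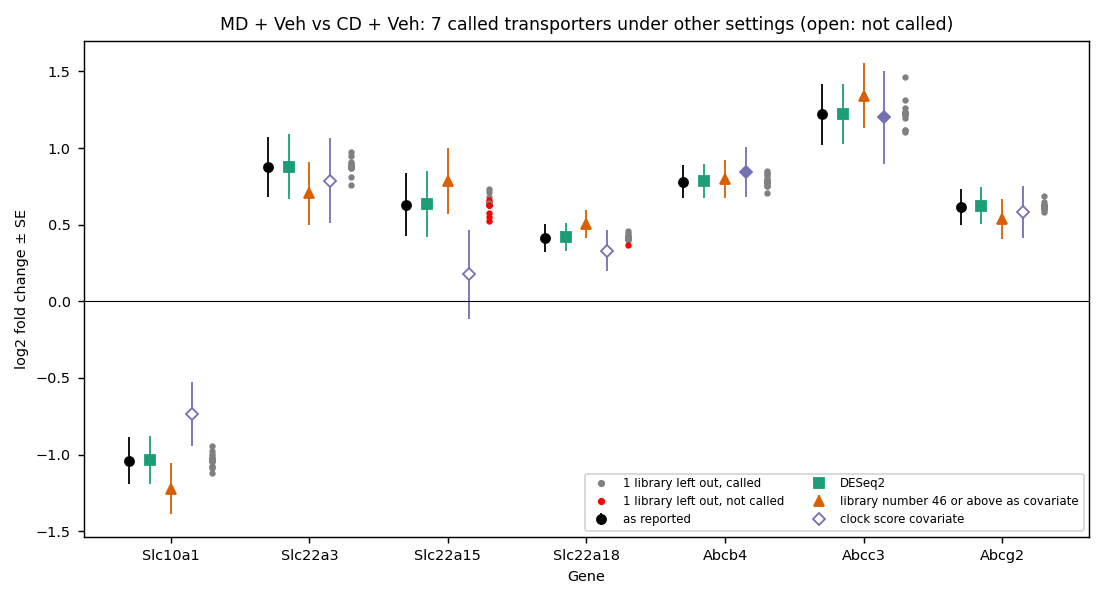
Log2 fold change ± SE between MD + Veh and CD + Veh for the 7 called transporters, as reported, by DESeq2, with the division between library numbers 45 and 46 or the clock score as a covariate, and with 1 of the 19 libraries left out at a time (dots). Open or red symbols are not called. No value changes sign, Slc22a15 is lost in 9 of 19 cases with 1 library left out, and only Abcb4 and Abcc3 remain called with the clock score.

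With PE, the diet difference was measured in 10 libraries that the vehicle comparison did not use. MD + PE again had lower Slc10a1 and higher Abcc3, Abcb4 and Abcg2 than CD + PE, and Slco2a1, the prostaglandin transporter, was lower. Of the 30 transporters, 5 were called, which is 16.7%, against 4.61% of all genes. There were 3 higher, against 1.69%, and 2 lower, against 2.92%. Both that fell were uptake carriers and all 3 that rose were efflux pumps. The median log2 fold change was −0.15 over uptake carriers and 0.39 over efflux pumps, beside −0.02 over all genes. DESeq2 also called 5, against 5.28% of its genes. Each of the 4 genes called in both diet comparisons changed in the same direction in both. The overlap of the 2 sets of calls over all genes was not computed, so that of the transporters has no background beside it.

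Slc10a1 was at 635, 414, 535, 502 and 532 CPM in CD + PE and at 284, 308, 338, 186 and 300.0 CPM in MD + PE, with no overlap. The log2 fold change was −0.89 (SE 0.147, edgeR adjusted p = 0.000855), or 1.85-fold lower. Abcc3 was at 144, 146, 206, 111 and 162 CPM in CD + PE and at 276, 323, 358, 301 and 377 CPM in MD + PE. All MD + PE libraries were above all CD + PE libraries (log2 fold change 1.09, SE 0.182, edgeR adjusted p = 0.000916).

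Abcg2 was at 66.3, 56.2, 52.8, 50.7 and 42.6 CPM in CD + PE and at 105, 73.0, 92.9, 85.1 and 104 CPM in MD + PE. These did not overlap, and the gene rose 1.71-fold (log2 fold change 0.78, SE 0.111, edgeR adjusted p = 0.000176). Abcb4 was at 219.9, 193, 274, 208 and 248 CPM in CD + PE and at 308, 291, 307, 367 and 329.9 CPM in MD + PE. The lowest MD + PE library was above the highest CD + PE library (log2 fold change 0.49, SE 0.103, edgeR adjusted p = 0.00605).

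Slco2a1, on chromosome 9 from 102865911 to 102973201, was at 67.1, 74.2, 61.7, 75.7 and 62.1 CPM in CD + PE and at 56.6, 38.9, 56.8, 30.8 and 31.8 CPM in MD + PE. The groups did not overlap, but MD + PE spread widely, and the log2 fold change was −0.67 (SE 0.190, edgeR adjusted p = 0.0385). The call was lost when any of 8 libraries was left out (CD + PE replicates 1 to 5 and MD + PE replicates 2, 4 and 5), with an adjusted p of up to 0.103. It was also lost in a fit of the 2 groups alone (adjusted p = 0.0507) and without MD + Veh replicate 1 and MD + PE replicate 2 together (adjusted p = 0.0848), while the other 4 were called in both. With vehicle the same diet difference for Slco2a1 was −0.38 (SE 0.199, edgeR adjusted p = 0.220).

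The 3 SLC22 carriers that rose with diet under vehicle had small diet differences under PE. Slc22a3 was at 3.83 ± 0.921 CPM in CD + PE and 3.97 ± 0.771 CPM in MD + PE (SD, n = 5 each), a log2 fold change of 0.05 (95% interval −0.34 to 0.44). Slc22a18 had 0.13 (95% interval −0.04 to 0.31) and Slc22a15 had 0.20 (95% interval −0.21 to 0.60). The test of the difference between the 2 diet effects, the interaction, did not pass for any of them, with edgeR adjusted p values of 0.332, 0.533 and 0.696 in that order.

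Over the 30 transporters, 25 had the same sign in both diet comparisons, which is 83.3%, beside 69.4% over all 13597 genes. The correlation of their log2 fold changes across the 30 genes was 0.70 (Pearson's r, a description across genes, which are not independent), beside 0.135 over all genes. The value over all genes includes skeletal muscle markers with large opposite changes, such as Acta1 (6.64 with vehicle and −7.07 with PE). How far these lower it was not tested, so the 2 correlations are not a like comparison.

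**Figure D3:**
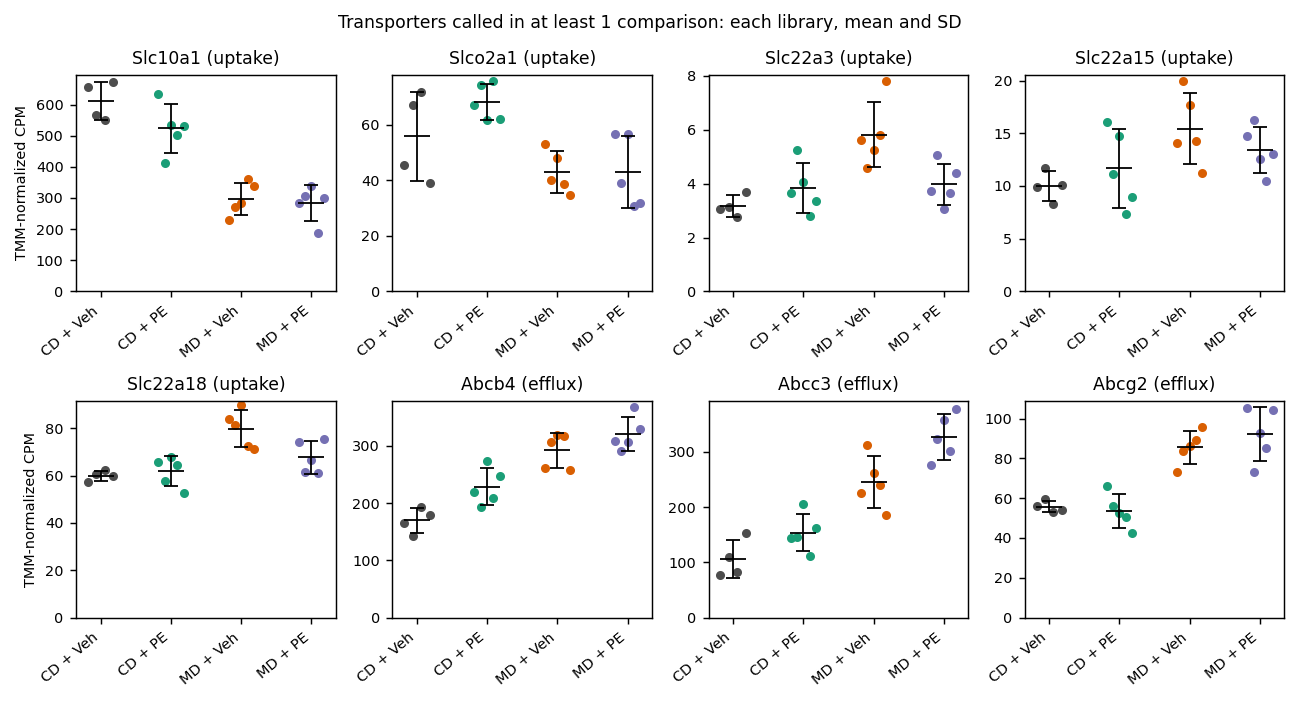
Normalized level in CPM of the 8 transporters called in at least 1 comparison, with a point per library and a bar for the mean and SD in each of the 4 groups (n = 4 for CD + Veh, n = 5 for the others). Slc10a1 lies at 549.6 CPM or above in CD + Veh and at 362 CPM or below on MD, and the Abcc3 points of both MD groups, from 186 CPM up, lie above all CD + Veh points. The highest CD + PE point of Abcc3, at 206 CPM, lies above the lowest MD + Veh point.

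With PE on the control diet, 1 transporter was called. Abcb4 was at 164, 143, 194 and 179 CPM in CD + Veh and at 219.9, 193, 274, 208 and 248 CPM in CD + PE. The groups overlapped narrowly, since CD + PE replicate 2 was just below CD + Veh replicate 3, and the log2 fold change was 0.43 (SE 0.110, edgeR adjusted p = 0.0350), or 1.34-fold. The call was lost when any of 5 libraries of the 2 groups was left out (CD + Veh replicates 1, 2 and 4 and CD + PE replicates 3 and 5), with an adjusted p of up to 0.120. It was also lost with the division between library numbers 45 and 46 in the model (edgeR adjusted p = 0.325). That term rests on MD + Veh, the only group on both sides, so the lost call does not tell the division from PE. Over the 11 alternatives other than 1 library left out, this one among them, the log2 fold change was 0.41 to 0.47. Crot rose in the same comparison by a log2 fold change of 1.16 (edgeR adjusted p = 0.000663). The single call is 3.33% of the transporters tested, beside 2.92% of all genes, 1.22% higher and 1.7% lower, so that it is near the background. None of the 15 uptake carriers was called by edgeR, and 3 stood at an unadjusted p below 0.05.

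DESeq2 called 2 transporters in this comparison, Abcb4 and Slc22a30, against 4.09% of its genes. Slc22a30, an organic anion carrier-like gene of the SLC22 family on chromosome 19 from 8312731 to 8382475, was at 117, 131, 124 and 98.1 CPM in CD + Veh and at 162, 163, 149, 176 and 155 CPM in CD + PE. The groups did not overlap, and the 1.37-fold difference had adjusted p values of 0.0279 by DESeq2 and 0.0723 by edgeR. Of its 31-base words, 39% occur in another gene too, 35.2% in Slc22a28, so its count is uncertain where the authors' mapping could split reads between them. The values of other transporters under PE on this diet were not called. Slc10a1 had a log2 fold change of −0.22 (95% interval −0.55 to 0.10), Abcc3 of 0.55 (95% interval 0.14 to 0.95, edgeR adjusted p = 0.126), Abcc2 of 0.25 (edgeR adjusted p = 0.165) and Abcb11 of −0.19 (95% interval −0.42 to 0.04). This comparison shares its CD + Veh libraries with the diet comparison under vehicle, so the values of the 2 are not independent.

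With PE on the MD diet, 0 transporters were called by edgeR or by DESeq2, beside 1.08% of all genes called by edgeR and 2.18% by DESeq2. At an unadjusted p below 0.05 stood 7 of 30 by each tool, with no share of all genes at that threshold beside them. Slc22a3 had the smallest p. It was at 5.64, 4.58, 5.25, 5.80 and 7.80 CPM in MD + Veh and at 3.74, 5.05, 3.04, 3.64 and 4.40 CPM in MD + PE, with a single MD + PE library within the MD + Veh range (log2 fold change −0.55, SE 0.182, edgeR adjusted p = 0.138). Slco1a4 was at 12, 17.3, 15.2, 23.0 and 7.88 CPM in MD + Veh and at 17.1, 46.2, 31.1, 33.2 and 18.1 CPM in MD + PE (log2 fold change 0.95, SE 0.375, edgeR adjusted p = 0.215), with overlapping groups.

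The main carriers of the bile salt route were not called between these groups. Slc10a1 had a 95% interval of the log2 fold change from −0.38 to 0.24, and Abcb11 one from −0.47 to −0.04 (edgeR adjusted p = 0.232). Abcc3 was at 245 ± 46.7 CPM in MD + Veh and 327 ± 41.2 CPM in MD + PE (SD, n = 5 each), a log2 fold change of 0.41 (95% interval 0.04 to 0.79, edgeR adjusted p = 0.266).

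No transporter passed the interaction test by edgeR or by DESeq2, and over all genes 0.00735% passed by edgeR and 0.539% by DESeq2. At an unadjusted p below 0.05 stood 4 of 30 by each tool, again with no share of all genes at that threshold. The 4 by edgeR were Slc22a3 (log2 difference of the PE effects −0.83, SE 0.269), Abcb1a (1.06, SE 0.390), Slc22a18 (−0.28, SE 0.123) and Atp8b1 (0.40, SE 0.183), the first with an adjusted p of 0.332. Abcb1a shares 20% of its 31-base words with Abcb1b, and the highest CD + Veh library, replicate 4, was at 7.81 CPM where the others were at 3.69 to 4.29. The PE effects on the 2 diets, which share no library, had the same sign in 17 of 30 transporters, which is 56.7%, beside 60.4% over all genes.

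**Figure D4:**
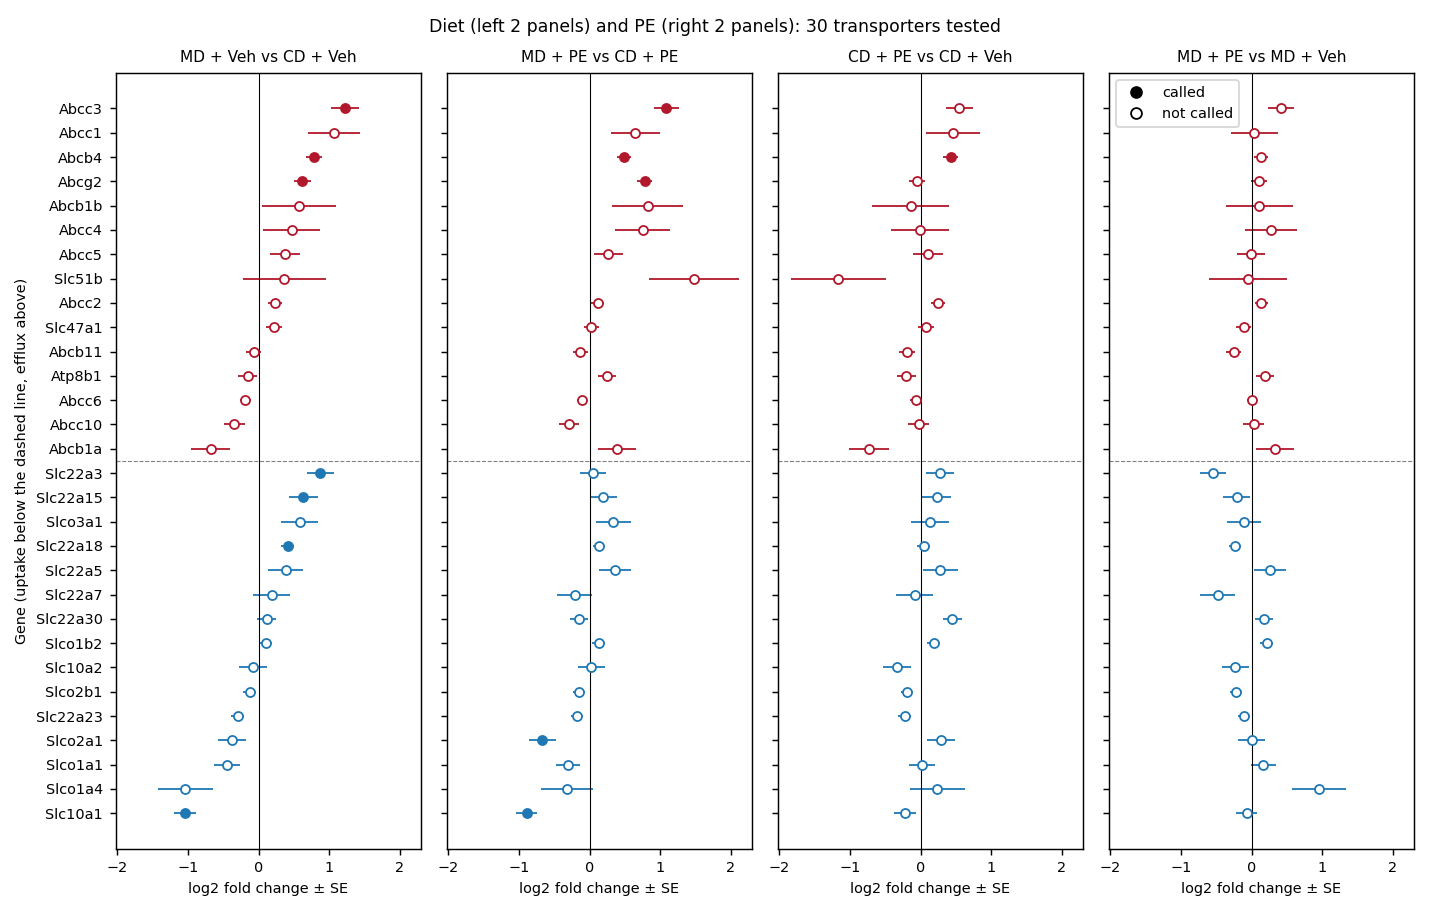
Log2 fold change ± SE of the 30 transporters tested in the 4 comparisons of 2 groups, with efflux pumps above and uptake carriers below the dashed line, ordered within each by the first panel. Filled points are called. The diet panels hold 7 and 5 filled points, the PE panels 1 and 0, and Slc51b, Abcb1b and Abcc1 have wide errors at low counts.

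Genes that work beside these carriers were followed as lists. Of 14 known regulators of transporter genes, 1 was called with diet under vehicle, beside 10.4% of all genes. Nr1h4, which encodes FXR, fell from 106 to 73.5 CPM (means, log2 fold change −0.53, SE 0.0976, edgeR adjusted p = 0.00108). Under PE its diet difference was −0.30 (edgeR adjusted p = 0.0595). Nr0b2, the FXR target that represses Slc10a1, was at 32.1 and 37.0 CPM in CD + Veh and MD + Veh and was not called (edgeR adjusted p = 0.601). Of the 11 targets of drug and stress sensors, 4 rose with diet under vehicle by edgeR, beside 4.74% of all genes, and 5 by DESeq2. Cyp3a11, the classical PXR target, rose from 648 to 2062 CPM (log2 fold change 1.67, edgeR adjusted p = 1.22e-05), and Gclc, the rate-limiting enzyme of glutathione synthesis, had a log2 fold change of 0.91, Cyp4a10 one of 2.24 and Cyp2c55 one of 0.81.

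Of 15 bile acid synthesis genes, 4 rose with diet under vehicle, beside the same 4.74% of all genes, namely Acox2 (log2 fold change 0.74), Hsd17b4 (0.62), Hsd3b7 (0.49) and Scp2 (0.40), of which Acox2, Hsd17b4 and Scp2 work in peroxisomal side-chain shortening. Cyp7a1, which begins the classical route, was at 81.0 and 104 CPM in CD + Veh and MD + Veh and was not called (edgeR adjusted p = 0.609). Between diets under PE, where 1.69% of all genes were called higher, 2 of the 15 rose, Acox2 and Hsd17b4. Of 9 other canalicular genes, the cholesterol exporters Abcg5 and Abcg8 rose in both diet comparisons, Abcg5 by log2 fold changes of 1.54 and 1.49 and Abcg8 by 1.19 and 1.34. Among the sensor targets, Cyp3a11 (log2 fold change 1.54) and Cyp2b10, the classical CAR target (2.90, at means of 0.219 and 1.70 CPM), rose with diet under PE. Of 28 other carriers of these families, 10 passed the filter on low counts and 0 were called with diet under vehicle by either tool, with 2 at an unadjusted p below 0.05 by edgeR and 3 by DESeq2. Of the 10, 8 were higher and 2 lower in that comparison. Between diets under PE all 10 were higher, edgeR called 0 and DESeq2 called 1, against 5.28% of its genes.

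With PE on the control diet, where 1.22% of all genes were called higher, 1 of the 15 bile acid synthesis genes rose, Akr1c6 (log2 fold change 0.47, edgeR adjusted p = 0.0156), and 2 of the 11 sensor targets, Gclc (0.72, edgeR adjusted p = 0.00512) and Cyp4a10 (2.45, edgeR adjusted p = 0.0191). Of the 14 regulators 0 were called by edgeR or by DESeq2, with 2 at an unadjusted p below 0.05 in each. Ppara is among the 14, and the article reports it as induced in CD + PE relative to CD + Veh, by an adjusted p from DESeq2. A call here also needed the minimum fold change, and the reason for the difference was not tested. With PE on the MD diet, 0 of the genes of these 5 lists were called by either tool, with 8 in all at an unadjusted p below 0.05 by edgeR and 11 by DESeq2.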

How the data were processed

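Bulk liver RNA of 19 mice was sequenced from poly(A)-selected, stranded libraries. Per the labels and the article's methods, the authors trimmed reads with fastp 0.23.4, quantified them with Salmon 1.10.3 against the GENCODE transcriptome of GRCm39 (release not given in the sources used here) and used tximport to get gene totals. The deposited table holds the authors' estimated counts per gene, already whole numbers, with no normalization, for 55836 genes. Groups came from the sample titles. Each library came from its own mouse.

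From these counts, 13597 genes were kept with filterByExpr, scaled with TMM and tested with edgeR 4.0.16 (quasi-likelihood, 1 model over the 4 groups, R 4.3.3), in 4 comparisons of 2 groups and their interaction. Each SE is the absolute log2 fold change divided by the square root of the F statistic. A call needed a Benjamini-Hochberg adjusted p below 0.05 over all genes tested and a log2 fold change of 0.38 or more in either direction. DESeq2 1.42.0, the authors' tool, was an alternative. Other alternatives were other normalization, filters, fits of the 2 groups alone, fits with the division between library numbers 45 and 46, the replicate number or the clock score, and each library left out. Levels per kilobase used the length of the Ensembl canonical transcript. Promoter windows, 31-base words shared between genes and exons on the opposite strand came from the GRCm39 genome and its GENCODE annotation. The scripts were tested on simulated counts.

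The transporters and the gene lists were chosen with earlier results of these data known. By rule, library values are given for transporters called in at least 1 comparison and those with the highest level per kilobase, and at most 4 called genes are named per other list. Slc22a30, Slc22a23, Abcc1, Slco1a4, Crot, Plg, Srsf5, Nr0b2 and Cyp7a1 were chosen after their values were seen. No 2 of the 171 pairs of count columns were identical, and over 36 pairs of libraries of 1 group the mean squared difference was 11.2 to 83.1 times the counting variance. Replicate numbers did not pair libraries across groups: the median correlation of residuals over 27 same-number pairs was 0.0293, with 6 above 0.1. Depth was 10398820 to 15456729 counts per library.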

Additional observations from a re-analysis of the deposited data

Results flagged for a closer look

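In 8 of 122 pairs of a transporter and a group, 1 library stood apart from the others of its group by Dixon's test (critical value 0.829 for 4 libraries and 0.710 for 5). Chance gives about 1 in 20. In CD + Veh, Abcb1a was at 7.81 CPM in replicate 4 with the next library at 4.29, Abcb1b was at 2.01 CPM in replicate 2 with the next at 0.671, and Abcc10 was lowest at 11.3 CPM in replicate 1 with the next at 13.1. In CD + PE, Slc22a23 was at 79.5 CPM in replicate 1 with the next at 71.2, and Abcb11 was lowest at 523 CPM in replicate 5 with the next at 641. In MD + Veh, replicate 1, the library with the most skeletal muscle marker RNA, had Slco3a1 at 7.73 CPM with the next at 4.56, and Abcb1b at 3.11 CPM with the next at 1.16. In MD + PE, replicate 2, the library that stood apart in intestinal markers (Vil1 at 22.7 CPM) and in Krt19, Epcam, Krt7 and Cftr, had Slc51a at 0.421 CPM with the next at 0.0869, which is 5 counts and 1 count. Slc51a was not tested, and the other 6 genes were called by edgeR in no comparison.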

How the results depend on the processing

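None of the called values, nor that of Slc22a3 between MD + PE and MD + Veh, changed sign under any alternative, and the other transporters were followed only by counts of calls. In CD + PE against CD + Veh the count of called transporters, 1, became 2 by DESeq2 and 0 with no filter on low counts, with a term for libraries numbered 46 or above or with the clock score as a covariate, and it ranged from 0 to 2 with 1 library left out (0 without replicate 1 or 2 of CD + Veh or replicate 3 or 5 of CD + PE, and 2 without MD + PE replicate 4). Fitting the 2 groups alone called Slc22a30 in place of Abcb4 (adjusted p for Abcb4 = 0.0731). In MD + Veh against CD + Veh the count of 7 became 2 with the clock score (log2 fold changes and edgeR adjusted p were 0.79 and 0.133 for Slc22a3, 0.18 and 0.816 for Slc22a15, 0.33 and 0.193 for Slc22a18, and 0.58 and 0.0689 for Abcg2), 6 to 9 under the others, and 5 to 9 with 1 library left out (5 without MD + Veh replicate 3). The cause was not tested. In MD + PE against CD + PE the count of 5 stayed at 4 to 5, and it was 0 in the other comparisons throughout. With the replicate number as a block the counts were 1, 8, 0, 5 and 0 for the 5 comparisons, the block adding Abcc1 to the diet comparison under vehicle and losing no call. Leaving out MD + Veh replicate 1 and MD + PE replicate 2 together gave 1, 7, 0, 4 and 0. The libraries below number 46 alone called 9 between diets under vehicle, and those from 46 called 0 between MD + PE and MD + Veh. These 3 subsets were chosen after seeing the data. Depth limits Abcb1b, Slc51b and Slc51a.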
